A study of Mus musculus with 20 samples.

Results

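Night was compared with day in the hypothalamus of mice without Magel2 and Ndn (KO), the double deletion that the series calls MADIN and offers as a mouse model of Prader-Willi syndrome. The members were the 5 count tables named for night (KO_night 1 to 5) and the 5 named for day (KO_day 1 to 5), which are 10 of the 20 libraries in the series. The other 10 come from C57BL/6J mice (WT), 5 by day and 5 at night, and were used for the spread between libraries and for the comparison of genotypes. Per the series text, all mice had free food and water and 12 h of light in each cycle, and were killed 6 h (day) or 18 h (night) after light on. The day group was therefore sampled in the light and the night group in the dark. Both groups of KO libraries lack the same 2 genes. The genotype field of these libraries words it as a knockdown, while the series title and text describe a deletion. The age and sex of the mice and the strain background of the KO are not given in the sources used here.

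A second label of time exists and contradicts the file names in part of the members. The time field gives the opposite time for KO_day 1, KO_day 2, KO_night 1, KO_night 2 and KO_night 3, and it gives the same time as the file name for KO_day 3, 4 and 5 and for KO_night 4 and 5. Among the WT libraries, the time field of WT_night 1 gives day and so conflicts with its title. That library stays in the WT night group in every WT change and genotype comparison grouped by title. Groups below follow the file names, and KO_night 4 and 5 are also shown apart from KO_night 1, 2 and 3. No label ties a library to an animal, and a p-value here measures the spread between samples, which may be technical.

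Magel2 and Ndn are paternally expressed members of the MAGE family and are both active in the hypothalamus, the brain region that sets feeding, sleep, body temperature, hormone release and daily rhythm. The daily rhythm is kept by a feedback loop in which CLOCK and BMAL1 (encoded by Arntl) bind E-box motifs and drive Per, Cry, Nr1d and Dbp genes, whose products then repress the loop or pass its phase on to other genes. Nocturnal mice are active and eat in the dark, so genes of activity, feeding and stress hormones also vary over the day in this tissue.

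The deleted genes were near 0 in every KO library. Ndn, which encodes necdin, stood at 0.725, 0.444, 0.745, 0.248 and 0.475 CPM (counts scaled to a common library total with TMM factors) in KO_day 1 to 5, and at 0.373, 0.596, 1.01, 0.69 and 0.365 in KO_night 1 to 5. Magel2, which encodes a regulator of protein ubiquitination and trafficking, stood at 0.0269, 0.164, 0.11, 0.0276 and 0.0413 by day and at 0.11, 0.142, 0.182, 0.0575 and 0 at night, where a count of 0 in KO_night 5 allows up to 0.0911 CPM. These levels rest on 9 to 39 counts per library for Ndn and 0 to 7 for Magel2. In the WT libraries Ndn stood at 239 to 346 CPM, apart from the library labelled WT_day 3 at 31, and Magel2 at 15.6 to 19.5 CPM, apart from that library at 2.15. The KO labels therefore held in all 10 libraries, and the library labelled WT_day 3 stood apart from its genotype label in both genes.

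Totals in the KO libraries ran from 32066289 to 47891820 counts, and 22181 genes passed the filter on low counts. Mitochondrial rRNA took 15% of the counts in KO_night 4, the lowest share, and 22.6% in the highest KO library. On the first principal component, which held 28.5% of the variance over 17553 genes, KO_night 2 and KO_night 3 lay at 21 and 11.4 and KO_day 2 and KO_day 3 both at -16.9, while KO_night 4 lay lowest, at -18.9, on the next component (16.3%). All 7 hypothalamus markers (Nkx2-1, Nr5a1, Hmx2, Hmx3, Fezf1, Sim1, Otp) were detected, with a summed level of 64.1 to 72.9 CPM by day and 58.4 to 66.9 at night. None of the 7 was at 0.

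Few genes separated night from day. Of 22181 genes tested, 16 passed an adjusted p of 0.05 (0.0721% of all genes), 12 higher (0.0541%) and 4 lower (0.018%) at night, and 12 of the 16 have a gene symbol that is not a clone name. Among the genes that rose are receptors (Htr1a, Adora1, Tyro3), a transport protein (Klc2), enzymes (Acot11, Ogfod2), a hydrolase-fold protein (Abhd8), a synapse-to-nucleus messenger (Nsmf) and 3 pseudogenes. The genes that fell are the clock output Dbp, the neuropeptide S receptor Npsr1, the cilium gene Spag16 and the antisense transcript Gm26907. Changes were small, from 0.22 to 0.98 in absolute log2 value, with adjusted p from 0.022 to 0.049. Day and night levels did not overlap in 14 of the 16 genes, where 2.51% of all genes tested show no overlap. The 16 were called on these same libraries, so little overlap follows from the choice and adds no support to the calls. A further 425 genes (1.92%) had an adjusted p between 0.05 and 0.1, and 3917 genes (17.7%) an unadjusted p under 0.05. The calls depended on single libraries: without KO_day 2, KO_day 3, KO_day 5 or KO_night 2 in turn 0 genes passed, without KO_night 1, KO_night 4, the library labelled WT_day 3 or KO_night 5 the count was 2, 4, 8 or 10, and without KO_day 4, KO_night 3 or KO_day 1 it was 41, 52 or 328. With time taken from the time field, 0 genes passed in edgeR (1505 at an unadjusted p under 0.05), and with DESeq2 in place of edgeR 591 genes passed, 15 of the 16 among them.

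Htr1a, an inhibitory serotonin receptor (chromosome 13, 105443639 to 105448122 in GRCm38, where all gene positions are given), stood at 12.5, 11.3, 11.4, 10.6 and 12.4 CPM in KO_day 1 to 5 and at 16, 14.5, 14.6, 14.5 and 14.6 in KO_night 1 to 5. Every night library lay above every day library, and KO_night 1 was the highest. The rise was 0.35 ± 0.057 (log2, SE, n = 5 against 5, edgeR adjusted p = 0.022). Adora1, an inhibitory adenosine receptor linked to sleep need (chromosome 1, 134199223 to 134235431), stood at 40.5, 34, 36.7, 38 and 37.9 CPM by day and at 44.1, 48, 45.6, 48.2 and 44.7 at night. Here too the groups were apart, with a rise of 0.30 ± 0.0526 (adjusted p = 0.0326). Tyro3, a receptor tyrosine kinase for Gas6 and protein S (chromosome 2, 119797733 to 119818104), lay within 29.3 to 31 CPM in the day libraries and at 37.6, 34, 35, 37.1 and 36.1 at night. Its day values were the tightest of these 3 receptors, and it rose by 0.25 ± 0.0452 (adjusted p = 0.0328). Adora1 overlaps Mybph on the opposite strand, and reads of the pair may be shared.

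Klc2, a kinesin light chain that couples cargo to the motor (chromosome 19, 5107746 to 5118560), stood at 80, 73.9, 75.8, 79.5 and 78.8 CPM by day and 86.6, 89, 93.1, 98.8 and 85.1 at night, a rise of 0.22 ± 0.0424 (adjusted p = 0.049). Acot11, an acyl-CoA thioesterase of lipid metabolism (chromosome 4, 106744555 to 106804998), stood at 50.2, 44, 45.6, 45.5 and 47.3 CPM by day and 52.6, 59.2, 55, 59.5 and 57.3 at night, a rise of 0.29 ± 0.0475 (adjusted p = 0.022). Both genes had night values above all day values, with KO_day 1 the highest day library in each. On the opposite strand Klc2 overlaps AC124502.1 and Acot11 overlaps Fam151a and Gm12745, and reads may be shared here too.

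Nsmf, a protein that carries NMDA receptor signals from synapse to nucleus (chromosome 2, 25054355 to 25062881), stood at 71.6, 64.2, 64.3, 68.1 and 65.5 CPM by day and 81.4, 89.1, 75.8, 84.1 and 74.1 at night, a rise of 0.28 ± 0.0544 (adjusted p = 0.049). Abhd8 (chromosome 8, 71456705 to 71463655) stood at 124, 113, 110, 122 and 112 CPM by day and 137, 140, 138, 143 and 141 at night, a rise of 0.27 ± 0.0499 (adjusted p = 0.0416). Ogfod2, which carries an oxygenase domain (chromosome 5, 124112297 to 124115483), stood at 9.59, 8.83, 9.33, 9.95 and 9.51 CPM by day and 12.1, 13.4, 10.6, 12.5 and 11 at night, a rise of 0.34 ± 0.0649 (adjusted p = 0.049). All 3 had separate groups. The gap between the highest day and the lowest night library was small for Nsmf (71.6 and 74.1) and for Ogfod2 (9.95 and 10.6). Nsmf overlaps Gm24328 on the opposite strand and Mir7664 on the same strand. The pseudogenes Gm30619 and Gm9824 overlap each other on opposite strands, so their rises of 0.50 and 0.45 may count the same reads, and the rise of 0.38 in the pseudogene Gm15459 may include reads of a parent gene.

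Among the genes that fell, Dbp, a transcription factor that carries the clock's phase to other genes (chromosome 7, 45705088 to 45710203), stood at 36.1, 37.1, 39.4, 44.1 and 39.7 CPM in KO_day 1 to 5 and at 26, 26.7, 36.5, 26.6 and 21.5 in KO_night 1 to 5. KO_night 3 lay inside the day range and the 4 other night libraries below it. Dbp fell by 0.51 ± 0.0997 (log2, adjusted p = 0.049). It overlaps Sphk2 on the opposite strand. Npsr1, the receptor of the arousal peptide neuropeptide S (chromosome 9, 24097996 to 24316398), stood at 10.7, 12.1, 12.8, 9.95 and 10.9 CPM by day and 8.67, 7.29, 7.84, 9.86 and 7.84 at night. The groups did not overlap, though KO_night 4 lay just below KO_day 4, and the gene fell by 0.44 ± 0.087 (adjusted p = 0.049). Npsr1 overlaps Gm15600 and Gm47674 on the opposite strand. Spag16, a protein of the motile cilium (chromosome 1, 69826970 to 70725132), stood at 27.3, 36.1, 39.4, 34.1 and 34.2 CPM by day and 24.1, 21.6, 23.1, 27.3 and 23.5 at night, a fall of 0.52 ± 0.0934 (adjusted p = 0.0328). KO_day 1 and KO_night 4 met at the same value, and the other libraries were apart. Spag16 spans 898 kb and holds 6 other annotated genes that overlap it.

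**Figure D1:**
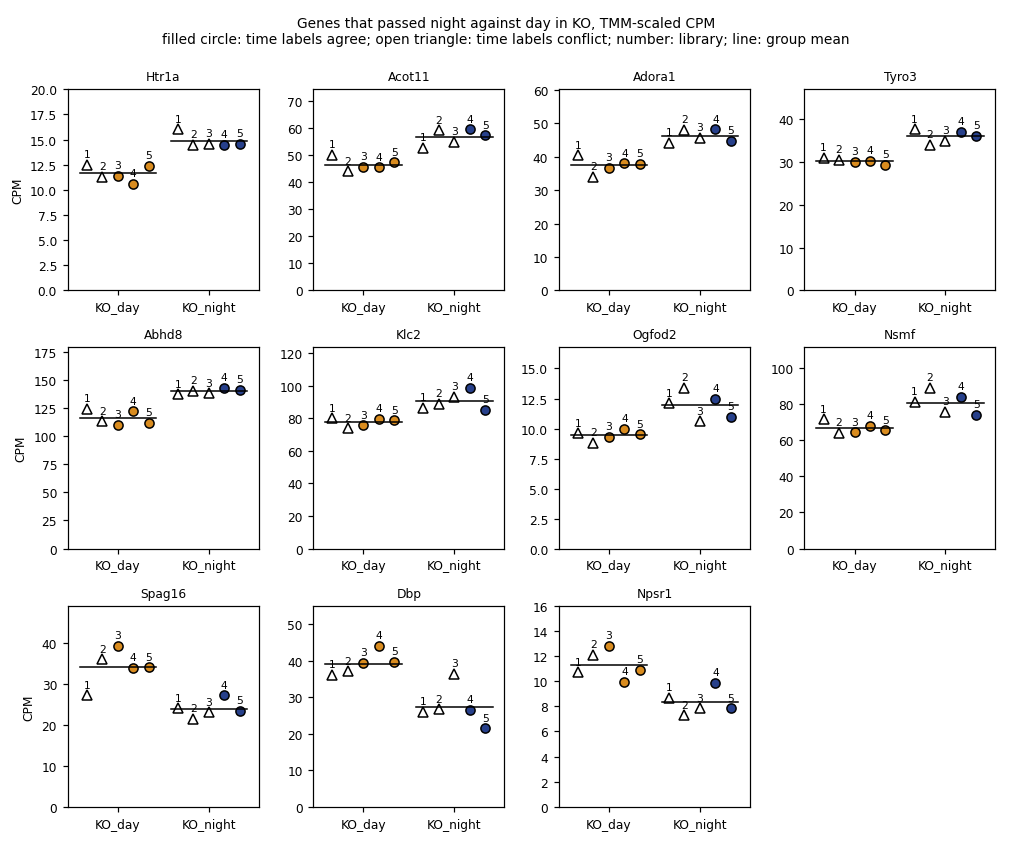
TMM-scaled CPM (vertical axes, from 0) of 11 called genes with a gene symbol in each KO library, by day and at night, with the group mean as a line, filled circles for libraries whose 2 time labels agree and open triangles for those whose labels conflict. The 8 genes that rose have all night libraries above all day libraries (Htr1a from 10.6 to 12.5 by day and from 14.5 to 16 at night), and in Dbp the night library 3, at 36.5, lies inside the day range.

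Each of these 11 calls was lost under at least 10 of 20 other settings of the fit. Htr1a and Acot11 kept their calls most often of these (lost in 10), and Dbp, Npsr1, Tyro3 and Abhd8 were lost in 13. Apart from the setting that swaps the time labels, Htr1a ran from 0.31 to 0.37 and Adora1 from 0.26 to 0.33 over these settings. The genes that fell moved more: Dbp ran from -0.77 to -0.30, Spag16 from -0.59 to -0.32 and Npsr1 from -0.52 to -0.34.

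In the main edgeR fit, a single clock gene passed between day and night. Of 31 genes in 5 lists (the activating limb, the repressing limb, nuclear receptors, output factors of the PAR bZIP family with Nfil3, and kinases and ligases), 30 were tested, 1 fell (Dbp) and 0 rose in edgeR, beside 0.0721% called over all genes. At an unadjusted p under 0.05 there were 8 lower and 2 higher (33.3% of the 30, beside 17.7% of all genes, 8.48% lower and 9.18% higher). The median change of the 30 was -0.05, beside 0.00 over all genes, and 21 were lower at night. Per3 had 0 counts in all libraries and was not tested. Rpl13 and Cox4i1, genes of the ribosome and of oxidative phosphorylation, also had 0. Such a 0 is therefore not read as absence of expression, and its cause was not tested.

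The promoters of the 3 clock genes with the largest changes below 0 are shown because Dbp, Ciart and Per1 are textbook E-box targets. Each is the 250 bases upstream of a RefSeq start (GRCm38.p6, written 5′ to 3′ on the gene's strand), and capitals mark the E-box CACGTG, a palindrome that reads the same on both strands. Dbp is at chr7:45704997-45705246 (+), Ciart at chr3:95882229-95882478 (-) and Per1, at the first of its 2 starts, at chr11:69098699-69098948 (+).
Dbp: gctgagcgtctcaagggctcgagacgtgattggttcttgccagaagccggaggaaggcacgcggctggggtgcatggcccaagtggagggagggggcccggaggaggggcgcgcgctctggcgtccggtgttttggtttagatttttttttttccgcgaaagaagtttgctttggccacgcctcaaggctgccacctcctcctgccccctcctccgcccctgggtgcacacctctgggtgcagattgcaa
Ciart: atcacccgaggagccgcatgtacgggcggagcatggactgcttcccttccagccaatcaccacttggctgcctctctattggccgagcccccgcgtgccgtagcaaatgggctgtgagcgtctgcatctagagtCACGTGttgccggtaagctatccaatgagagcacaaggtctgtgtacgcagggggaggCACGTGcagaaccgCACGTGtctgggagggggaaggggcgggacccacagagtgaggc
Per1: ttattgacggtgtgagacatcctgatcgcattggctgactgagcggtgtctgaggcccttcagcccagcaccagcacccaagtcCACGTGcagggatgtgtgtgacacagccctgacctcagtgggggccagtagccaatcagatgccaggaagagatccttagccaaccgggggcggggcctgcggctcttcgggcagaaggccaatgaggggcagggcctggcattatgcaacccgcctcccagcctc
Ciart holds 3 matches, Per1 holds 1 and Dbp holds 0. Of 32851 windows of that length, 1978 (6.02%) hold CACGTG and 269 (0.819%) hold the D-box TTATGTAA on either strand. Of the 24 tested clock genes with a window, 5 hold the E-box (Per1, Cry1, Ciart, Bhlhe41, Tef) and 1 the D-box (Timeless). Of the 9 called genes with a window, 2 hold the E-box (Npsr1, and Acot11 at its second start) and 0 the D-box. A gene counts here if any of its windows holds the motif, and the second window of Per1 holds 0 E-boxes. The shares of 6.02% and 0.819% are of single windows, so the counts by gene are not read against them. A match is a description of the letters only.

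Ciart, a repressor of CLOCK and BMAL1, stood at 6.29, 6.33, 6.98, 5.87 and 6.11 CPM by day and at 4.68, 5.36, 4.44, 4.66 and 5.02 at night. The groups did not overlap, and its change of -0.39 ± 0.0869 missed the threshold (adjusted p = 0.053). It passed with the gene length trend removed (-0.43, adjusted p = 0.0432) and without KO_day 1 (-0.39, adjusted p = 0.0402). Per1, a repressor that also responds to light and stress, stood at 19.4, 15.9, 20.9, 19.7 and 19.5 CPM by day and 15.8, 14.5, 16.8, 18.1 and 15.1 at night. The ranges overlapped through KO_day 2, with a change of -0.25 ± 0.082 (adjusted p = 0.138). In the repressing limb Per2 (-0.08), Cry1 (0.02), Cry2 (-0.11), Bhlhe40 (-0.13) and Bhlhe41 (-0.02) did not pass either, and neither did the nuclear receptors Nr1d1 (0.02), Nr1d2 (-0.13), Rora (-0.22) and Rorb (-0.21, adjusted p = 0.0941, and 0.0219 in DESeq2). Nfil3, which competes with Dbp for D-box sites, had a change of 0.28 ± 0.0893 (adjusted p = 0.128), while the Dbp relatives Hlf and Tef stood at -0.18 and 0.05.

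In the activating limb 0 of 4 genes passed in edgeR or DESeq2, and 0 had an unadjusted p under 0.05. Their median was -0.04, with 0.08 where time labels agree (3 of 4 higher) and -0.22 where they conflict (0 of 4 higher). Arntl stood at 30.4, 30.4, 28.4, 27.9 and 27.6 CPM in KO_day 1 to 5 and 29, 26.7, 25.9, 31 and 30.1 in KO_night 1 to 5, with a change of -0.02 ± 0.0624 (adjusted p = 0.906). KO_night 2 and 3 lay below the day range and KO_night 4 above it. Npas2, a relative of CLOCK, stood at 17.1, 16.5, 13.9, 21.6 and 19.8 CPM at night beside a day range of 15.4 to 20.5, with KO_night 3 below it and KO_night 4 above it. Its change was -0.05 ± 0.0982 (0.24 where labels agree and -0.32 where they conflict), that of Clock -0.01 ± 0.0406 and that of Arntl2 -0.16 ± 0.0866. In WT, Arntl rose by 0.32 (adjusted p = 0.0262). The difference between the genotypes was -0.34 for Arntl and did not pass (adjusted p = 0.0641). Without the library labelled WT_day 3, Arntl stood at 0.33 in WT and no longer passed (adjusted p = 0.0664).

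**Figure D2:**
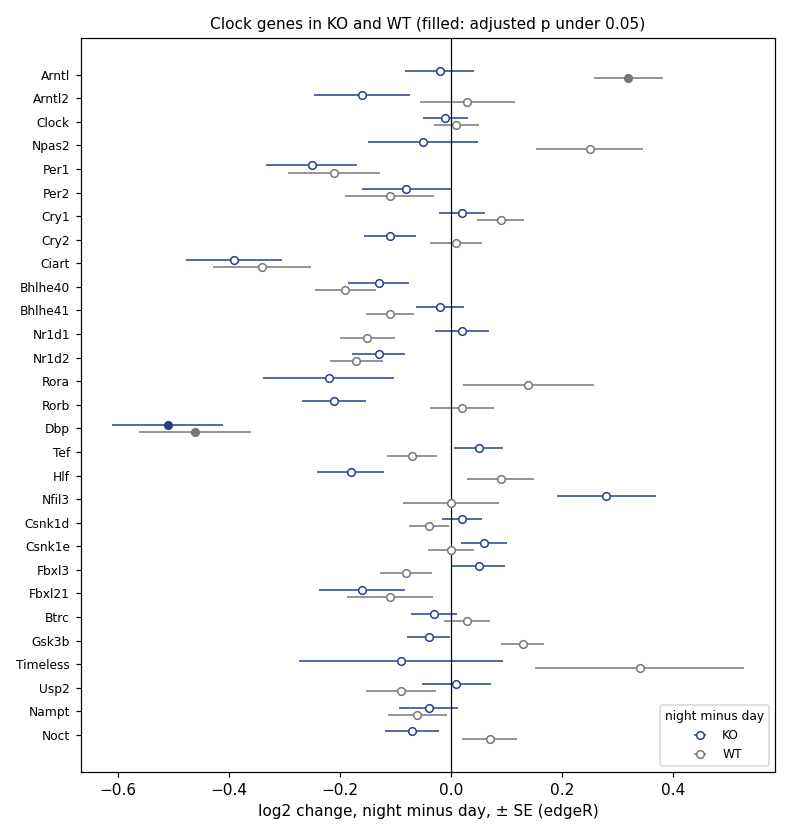
Log2 change from day to night with its SE (horizontal axis) for 29 tested clock genes in KO (blue) and WT (grey), with filled points for an adjusted p under 0.05. Dbp lies at -0.51 in KO and -0.46 in WT, both filled, and Arntl at -0.02 in KO and 0.32 in WT, filled only in WT.

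Genes of protein folding lay higher at night as groups, without a gene that passed. The unfolded protein response list holds endoplasmic reticulum chaperones and their regulators: 14 of its 14 tested genes were higher at night, with a median of 0.22, where 50.5% of all genes were higher and the median was 0.00. At an unadjusted p under 0.05 there were 10 of the 14 (71.4%, beside 17.7%), and 0 passed in edgeR and 3 in DESeq2. Its summed level ran from 1100 to 1360 CPM by day and from 1280 to 1510 at night, with KO_day 1 inside the night range. Hspa5, the main chaperone of the compartment (BiP), stood at 284, 231, 217, 247 and 232 CPM by day and 349, 316, 254, 276 and 328 at night (0.33 ± 0.0989, adjusted p = 0.11). Hyou1, a partner chaperone, was the only member whose groups did not overlap, at 139, 120, 121, 134 and 132 against 151, 150, 147, 156 and 146 CPM (0.21 ± 0.0547, adjusted p = 0.0819). Sdf2l1, a cofactor of the same chaperone system, had the largest change (0.52 ± 0.156, adjusted p = 0.111).

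Among heat shock genes, chaperones of the cytosol, 12 of 13 were higher at night with a median of 0.26. Of these 13, 9 had an unadjusted p under 0.05 (69.2%, beside 17.7% of all genes), and 0 passed in edgeR and 2 in DESeq2. The summed level ran from 1910 to 2320 CPM by day and from 2180 to 2600 at night, so the ranges overlapped. Ahsa1, an activator of HSP90, stood at 45.1, 37.5, 34.8, 41.4 and 39.7 CPM by day and 54.1, 50.7, 41.8, 47.3 and 51.6 at night (0.31 ± 0.0874, adjusted p = 0.098). Hspa1b, the classic inducible HSP70 gene, was highest in KO_night 1 at 12.9 CPM and stood at 6.8 in KO_day 1 but at 2.1 to 2.92 in the 4 other day libraries (0.95 ± 0.349, adjusted p = 0.168). The medians of both lists were above 0 in the libraries with agreeing labels (0.25 and 0.36) and in those with conflicting labels (0.17 and 0.21). With time taken from the time field they were 0.04 and 0.08. In WT the medians were -0.05 and 0.01, and -0.02 and 0.02 without the library labelled WT_day 3. Cirbp and Rbm3, RNA-binding proteins induced by cold, did not pass in any comparison, the direct one of the 2 night sets included (0.40 and 0.41, adjusted p = 0.275 and 0.22). Their summed level was 57.9 and 55.6 CPM in KO_night 4 and 5, below all other KO libraries, which ran from 65.9 to 83.3.

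**Figure D3:**
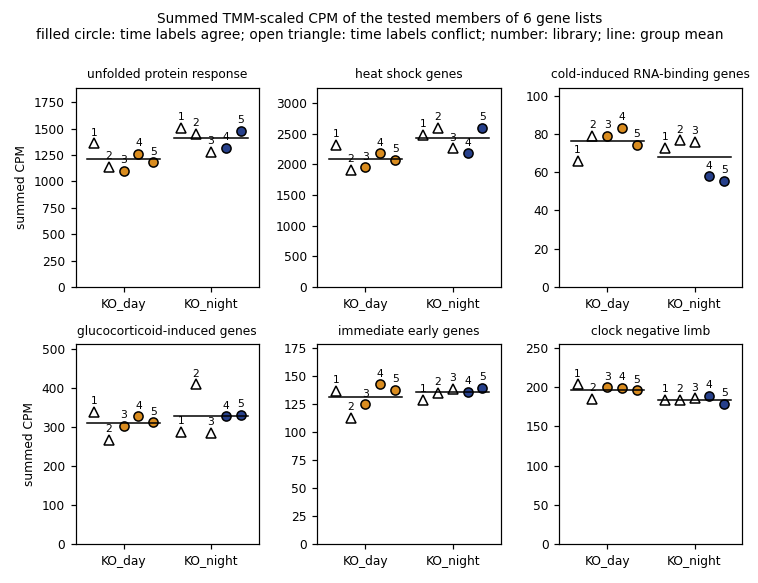
Summed TMM-scaled CPM of the tested members of 6 gene lists (vertical axes, from 0) in each KO library, with group means as lines and filled circles for agreeing and open triangles for conflicting time labels. The unfolded protein response sums lie at 1100 to 1360 by day and 1280 to 1510 at night, and the cold-induced sums are lowest in KO_night 4 and 5, at 57.9 and 55.6.

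In the lists of peptides and receptors of feeding, water balance and sleep, Adora1 was the 1 gene that passed. In the sleep and wake list 1 of 9 genes rose (beside 0.0721% called over all genes), and 3 of 9 had an unadjusted p under 0.05 (33.3%, beside 17.7%). In the oxytocin and vasopressin list 0 of 8 passed in edgeR or DESeq2, and 3 had an unadjusted p under 0.05 (37.5%). Hcrt, the peptide orexin that promotes waking, stood at 86, 50, 70.1, 110 and 96.6 CPM by day and 69.7, 105, 103, 116 and 121 at night, and the groups overlapped widely (0.32 ± 0.149, adjusted p = 0.259). Oxt, the peptide oxytocin, stood at 234, 224, 249, 291 and 260 CPM by day and 249, 334, 274, 311 and 318 at night (0.24 ± 0.0975, adjusted p = 0.208). Crh, which drives stress hormone release, had a change of 0.45 ± 0.149 (adjusted p = 0.138), and Avp, vasopressin, of 0.04 ± 0.105. Of 15 feeding genes 0 passed in edgeR or DESeq2, with 2 at an unadjusted p under 0.05 and a median of 0.02. Of 10 genes of the suprachiasmatic nucleus, the seat of the clock, 0 passed in edgeR or DESeq2, 2 had an unadjusted p under 0.05 and the median was -0.11. These values are sums over a mixed tissue, in which fewer cells of a type and less RNA per cell cannot be told apart.

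Genes induced by glucocorticoids, the stress hormones that peak before activity in mice, had a median of 0.08 in KO, with members from -0.22 to 1.92. Of the 13, 0 were called in edgeR or DESeq2, and 3 had an unadjusted p under 0.05 (23.1%, beside 17.7% of all genes). Lcn2 was the 1 member that passed when only KO_night 4 and 5 were set against the KO_day libraries (2.93, adjusted p = 0.0496). It stood at 1.95 CPM in KO_night 4, at 0.487 in KO_night 5 and at 0.0701 to 0.227 by day. Its lowest KO count was 3, so the call rests mainly on KO_night 4 at a low level. The same list had a median of -0.57 in WT, with 4 called. The difference between genotypes had a median of 0.78, and 0 were called in edgeR. It had an unadjusted p under 0.05 in 9 of 13, beside 22.1% of all genes. Without the library labelled WT_day 3 the WT median was -0.34 with 2 called. The difference then had a median of 0.59, with 8 at an unadjusted p under 0.05 (4287 of 22374 over all genes) and 0 called. Tsc22d3 (GILZ) stood at 79.4, 59.8, 66.7, 70.2 and 70.5 CPM by day and 74.7, 110, 70.1, 83 and 90.6 at night in KO, a change of 0.30 ± 0.11 (adjusted p = 0.163), and fell by 0.57 in WT (adjusted p = 0.0262), where it stood at -0.45 without the library labelled WT_day 3 (adjusted p = 0.0842). KO_night 2 was the highest library for Tsc22d3 and also for the hormone-responsive kinase Sgk1, at 55 CPM where the other KO libraries ran from 25 to 39.5. Plin4, a lipid droplet coat protein, stood at 7.34, 4.51, 4.75, 3.75 and 4.42 CPM by day and 7.22, 9.73, 4.91, 13.3 and 9.82 at night (0.86 ± 0.252, adjusted p = 0.103). Immediate early genes, which mark recent neuronal activity, had a median of -0.02 in KO, beside -0.31 in WT (-0.32 without the library labelled WT_day 3). In KO 0 of 20 were called in edgeR and 1 in DESeq2, and 5 had an unadjusted p under 0.05 (25%, beside 17.7% of all genes). The genotype difference of this list had a median of 0.33, and 0 were called in edgeR. It had an unadjusted p under 0.05 in 9 of 20, beside 22.1% of all genes. Fosb, the member with the largest change below 0, was at -0.77 ± 0.23 in KO (adjusted p = 0.11) and fell by 1.78 in WT (adjusted p = 0.000231), and by 1.77 without the library labelled WT_day 3 (adjusted p = 0.00121). The genotype difference for Fosb was 1.01 and did not pass (adjusted p = 0.0928).

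Of 14 tested genes in the Prader-Willi region other than the deleted pair, 11 were lower at night with a median of -0.12. Of the 14, 6 had an unadjusted p under 0.05 (42.9%, beside 17.7% of all genes), and 0 passed in edgeR (1 in DESeq2). Snrpn, a splicing protein gene at the imprinting centre, stood at 42.6, 57.1, 53.5, 42.2 and 55.3 CPM by day and 39.8, 34.1, 39.4, 47.7 and 42.6 at night (-0.30 ± 0.123, adjusted p = 0.208). The median was -0.04 with the gene length trend removed. Nuclear genes of oxidative phosphorylation had 63 of 76 higher at night with a median of 0.05, and cytosolic ribosomal protein genes 50 of 75 with a median of 0.03, and 0 of either list passed in edgeR (14 and 0 at an unadjusted p under 0.05, 1 and 0 in DESeq2). Both lists changed side between the label sets, with medians of -0.08 and -0.10 where labels agree and 0.15 and 0.11 where they conflict.

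Markers of other cell types and regions differed between KO libraries. Slc17a7, a glutamate transporter of cortex and hippocampus, stood at 0.457, 0.444, 0.248, 0.22 and 0.227 CPM by day and 7.11, 3.55, 0.597, 0.517 and 0.274 at night, with KO_night 1 and 2 far above the rest. The 7 cortex and hippocampus markers summed to 30.6 to 36.1 CPM by day and 34.9 to 48 at night, highest in KO_night 1, and none was at 0 in all KO libraries. The 7 striatum markers summed to 95.1 to 98.7 by day and 90.8 to 120 at night, highest in KO_night 5, and the 5 thalamus markers to 64 to 78 and 61 to 115, highest in KO_night 2, where Prkcd reached 23.9 CPM beside 4.99 to 7.9 elsewhere. The 7 pituitary markers summed to 13.6 to 50.4 by day and 5.84 to 268 at night, led by growth hormone (Gh) at 239 CPM in KO_night 2 and 2.99 in KO_night 3. The 12 endothelial markers summed to 183 to 218 by day and 213 to 225 at night, with 10 of 12 higher and 4 of 12 at an unadjusted p under 0.05 (33.3%, beside 17.7% of all genes), led by Cldn5, a tight junction protein (0.38 ± 0.104, adjusted p = 0.0911). Another of the 12, by contrast, had every KO night library below every KO day library. The endothelial median was 0.13 in KO and 0.14 in WT, where 9 of 12 were higher. Without the library labelled WT_day 3 the WT median was 0.13. Neuron markers summed to 2160 to 2260 by day and 2020 to 2250 at night, and astrocyte markers to 2080 to 2330 and 2160 to 2460. Of the neuron markers, Tubb3 had 0 counts in every library, which is not read as absence of expression. No marker of these lists was among the 16 calls, and their part in the calls was not tested.

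**Figure D4:**
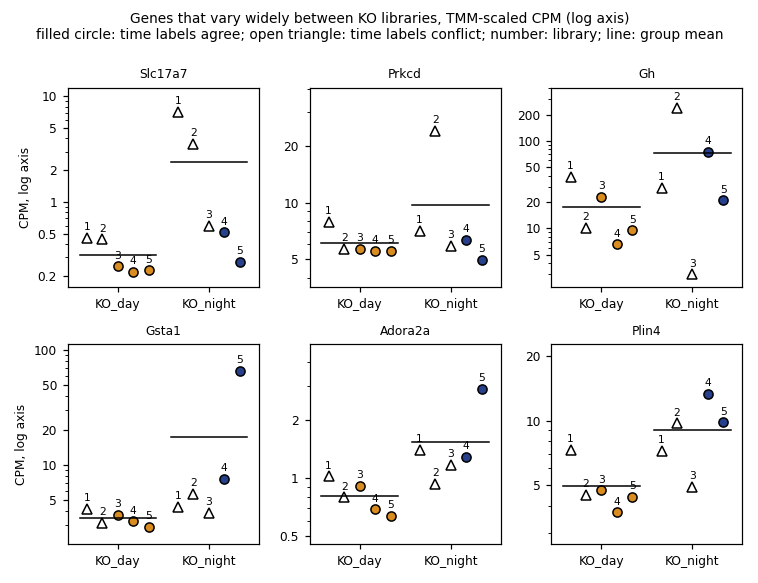
TMM-scaled CPM on log axes of 6 genes that vary widely between KO libraries, by day and at night, with group means as lines, filled circles for agreeing and open triangles for conflicting time labels. Slc17a7 stands at 7.11 and 3.55 in KO_night 1 and 2, Gh at 239 in KO_night 2, and Gsta1 at 66 in KO_night 5.

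The libraries whose labels agree and those whose labels conflict were then taken apart. Over 22181 genes, the change in the agreeing libraries (KO_night 4 and 5 against KO_day 3, 4 and 5) and that in the conflicting ones (KO_night 1, 2 and 3 against KO_day 1 and 2) had a correlation of r = 0.12, and 56.7% of genes had the same sign. The sets share no library, and genes are not independent replicates, so the value is a description. In the agreeing set 24 genes passed (0.108%), 3 of them among the 16, and in the conflicting set 0 passed in edgeR (0% of all genes, 3393 at an unadjusted p under 0.05). Htr1a had a change of 0.34 in each set, Adora1 of 0.31 and 0.30, and Acot11 of 0.34 and 0.24. Dbp stood at -0.77 in the agreeing set and -0.30 in the conflicting set, Npsr1 at -0.34 and -0.52, and Ciart at -0.38 and -0.39.

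KO_night 4 and 5 against all 5 KO_day libraries gave 50 called genes (0.225%), 45 higher and 5 lower, and KO_night 1, 2 and 3 against the same KO_day libraries gave 4 (0.018%), all higher. The comparisons share their day libraries. Genes of both are named here after their values were seen. The 5 lower in KO_night 4 and 5 were Dbp, Sult2b1, a cholesterol sulfotransferase, March7, a ubiquitin ligase, the pseudogene Gm2999 and the antisense transcript Gm31597. Gm31597 overlaps Sult2b1 on the opposite strand, so the falls of this pair may count the same reads. The lowest KO count of Gm31597 was 1. Sult2b1 stood at 2.07 to 2.34 CPM by day, at 1.18 and 1 in KO_night 4 and 5, and at 1.84, 1.87 and 2.26 in KO_night 1, 2 and 3. Those 2 libraries were the lowest of all 10, and the fall was 1.02 ± 0.177 (log2, adjusted p = 0.0188). Dbp fell by 0.71 ± 0.127 in this comparison (adjusted p = 0.0188), and it stood at -0.40 (adjusted p = 0.0866) in KO_night 1, 2 and 3. Among genes that rose in KO_night 4 and 5, the fibroblast growth factor receptor Fgfr3 stood at 90.3 to 104 CPM by day, 127 and 121 in those libraries and 110, 106 and 120 in the 3 others (0.36 ± 0.0718, adjusted p = 0.0304). Tuba1c, an alpha-tubulin, rose by 0.50 ± 0.0913, and Pnma5, a paraneoplastic antigen family gene, by 0.95 ± 0.164 (adjusted p = 0.0188 each). These 3 genes code for proteins, but many of the 45 are pseudogenes, antisense transcripts or other noncoding genes. The small RNA Gm24447 (0.90, edgeR adjusted p = 0.000927) and the pseudogene Gm5844 (0.83, edgeR adjusted p = 0.00148) had some of the lowest adjusted p. Without KO_night 4 the count fell from 50 to 6, without KO_night 5 it was 434, and without KO_day 1, 2 or 5 it was 89, 11 or 12.

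In 3 of these called genes KO_night 5 stood far above the other libraries. Gsta1, a glutathione transferase, stood at 66 CPM there, at 7.62 in KO_night 4 and at 2.89 to 5.59 in the 8 other KO libraries (3.42 ± 0.438, adjusted p = 0.000927). The mitochondrial cysteine tRNA gene mt-Tc stood at 119 CPM in KO_night 5 and at or below 0.221 in every other KO library. Adora2a, an adenosine receptor of striatal neurons, stood at 2.89 CPM in KO_night 5, the library with the highest striatum marker sum, and at 0.64 to 1.4 in the others.

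In KO_night 1, 2 and 3 the 4 called genes were Slc17a7 (3.56, adjusted p = 0.00723), Stum (0.68, adjusted p = 0.0103), the small nuclear RNA Gm22513 (1.81, adjusted p = 0.0114) and Htr1a (0.37, adjusted p = 0.0462). Stum, a membrane protein linked to mechanical sensing in flies, reached 49.1 CPM in KO_night 2 and stood at 31.6 and 30.8 in KO_night 1 and 3, above 20.8 to 25.6 by day. Gm22513 stood at 30.8, 33.9 and 21.8 CPM in KO_night 1, 2 and 3, at 14.8 and 11.3 in KO_night 4 and 5, and at 6.27 to 9.99 by day, so every night library lay above every day library. The count of 4 was 1, 2 and 2 without KO_day 2, KO_day 5 or KO_night 2, and 612, 485, 275 and 17 without KO_day 1, KO_day 4, KO_night 1 or KO_night 3.

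The difference between the 2 sets of night libraries, tested itself, passed in 3 genes (0.0135%). Gsta1 was lower in KO_night 1, 2 and 3 (-3.00, adjusted p = 0.0362), and without KO_night 5 it stood at -0.71 (adjusted p = 0.363). Gm2999 stood at 11.1, 10.9 and 10.3 CPM in KO_night 1, 2 and 3, at 6.07 and 7.3 in KO_night 4 and 5, and at 9.08 to 10.8 by day (0.69, adjusted p = 0.0149). The small nuclear RNA Gm22973 was at most 0.624 CPM in any KO library (3.99, adjusted p = 0.0149). The count was 0 without KO_night 1 or KO_night 2 and 740 without KO_night 5. Between KO_day 1 and 2, whose labels conflict, and KO_day 3, 4 and 5, 0 genes passed in edgeR (0%), and 1009 (4.55%) had an unadjusted p under 0.05.

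Whether night and day differ in another way in KO than in WT was tested by the interaction of genotype and time. In edgeR 0 genes passed (0%), the lowest adjusted p was 0.0542, and 4910 genes (22.1%) had an unadjusted p under 0.05, while DESeq2 called 1215. Of the 16 genes called in KO, 15 had an unadjusted interaction p under 0.05, with adjusted values from 0.0542 to 0.852, and the rule that chose them used the same KO libraries. Dbp was the exception, with a fall of 0.51 in KO and 0.46 in WT and a difference of -0.05 (adjusted p = 0.852). Htr1a stood at 0.35 in KO and 0.04 in WT, a difference of 0.31 (adjusted p = 0.0639), and Adora1 at 0.30 and -0.00, a difference of 0.30 (adjusted p = 0.0591). In WT, 61 genes passed (0.275%), and Dbp was the 1 gene called in both genotypes. Over all genes the changes in KO and WT had a correlation of r = -0.12, with 41% of the same sign. This is a description across genes, which are not independent replicates. Without the library labelled WT_day 3, WT had 12 called genes and 0 genes were called in both genotypes. Dbp then missed the threshold in KO (-0.52, adjusted p = 0.0508) and in WT (-0.49, adjusted p = 0.0825). The Htr1a difference was then 0.33 (adjusted p = 0.101) and that of Adora1 0.29 (adjusted p = 0.106). The interaction then called 0 genes in edgeR (4287 at an unadjusted p under 0.05, lowest adjusted p 0.0941), and r was -0.09 with 42.6% of the same sign. The interaction count rose to 1555 without WT_night 4, 1511 without KO_night 4, 717 without KO_day 4 and 474 without KO_day 1, and was 8, 6, 3 and 1 without WT_day 2, KO_night 3, KO_day 3 or WT_night 2.

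Gene length moved with the change in KO. Over 5 equal groups of protein-coding genes by span (3148 or 3149 genes each), the median log2 change from day to night in KO was 0.063 in the shortest (median span 4.65 kb), then 0.041, 0.021 and -0.011, and -0.082 in the longest (median span 139 kb). The share of genes higher at night fell from 70.2% to 23.1% across the same groups. The order was the reverse in WT, from -0.077 to 0.080, and from -0.066 to 0.086 without the library labelled WT_day 3. In KO the agreeing libraries ran from 0.031 to -0.026 and the conflicting ones from 0.096 to -0.126, so the direction was the same and the size smaller where labels agree. The difference between the longest and the shortest group, taken per library against the mean of the 10 KO libraries, was -0.032, 0.173, 0.214, -0.109 and 0.090 in KO_day 1 to 5 and -0.056, -0.214, -0.119, 0.038 and -0.009 in KO_night 1 to 5. Day and night libraries overlapped in this measure, with KO_day 3 and KO_night 2 at the ends. The longest genes among the calls, Spag16 (898 kb) and Npsr1 (218 kb), are 2 of the 4 that fell. With the length trend removed per library, 98 genes passed, all 16 among them.

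**Figure D5:**
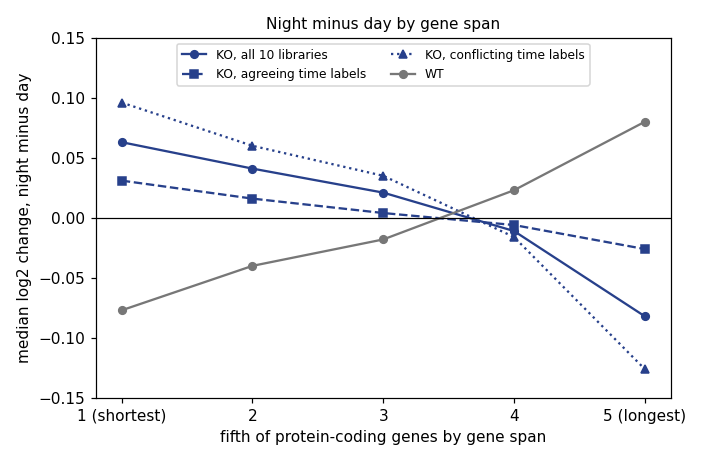
Median log2 change from day to night (vertical axis) in 5 groups of protein-coding genes ordered by gene span (horizontal axis), for all KO libraries, those with agreeing and with conflicting time labels, and WT. KO runs from 0.063 in the shortest genes to -0.082 in the longest, and WT from -0.077 to 0.080.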

How the data were processed

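Total RNA of mouse hypothalamus, depleted of ribosomal RNA, was sequenced as paired-end strand-specific libraries, per the labels. The authors deposited 20 tables of unnormalized counts per gene. HISAT2, featureCounts and mm10 are named in the submitters' processing notes. Versions, the annotation release and the strand setting are not given in the sources used here, so overlapping and antisense genes and pseudogenes are uncertain. Of 53801 genes, 53706 matched GENCODE M21 (GRCm38) by identifier, which gave symbols and positions. Promoters are from RefSeq.

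Genes were tested with edgeR 4.0.16 in R 4.3.3 (TMM scaling, quasi-likelihood F-test, Benjamini-Hochberg adjusted p under 0.05) after filterByExpr at a minimum count of 10. All 20 libraries entered 1 fit with 4 group means. KO_night was split by label in a second fit. Levels are CPM from totals scaled by TMM factors (0.945 to 1.08 in KO) and the common BCV (biological coefficient of variation) was 0.0918. The fit was tested on simulated data with the same spread for every gene and 50 genes changed at each size. For night against day in KO over 22181 genes it recovered 36% at 1.25-fold, 96% at 1.5-fold and 100% at 2-fold. The simulation held no gene length trend and no single library that stood apart, as the real libraries do. Libraries of a KO group differed by more than counting error (chi-square per degree of freedom 8.67 to 53.7), so none was deposited in duplicate. A floor of 3 counts covers counting error only.

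Group and time follow the file name or title, and for KO_day 5, whose title lacks the letter, the time field and file name. Members, lists, tests and alternatives were chosen with earlier results of these data known. Named genes are the clock lists, the deleted genes, the called genes with a mean of at least 1 CPM and no clone name for a symbol (up to 10 in each direction, 5 for the interaction and the split of KO_night), and up to 4 called members of each other list. Some genes that this rule names are left out and not reported here. All others were named after their values were seen. Alternatives were DESeq2 1.42.0, RLE scaling, no low-count filter, a gene length trend removed by offsets, KO libraries only and a replicate block. Others were further uses of the time labels and leaving out single libraries, each library of the series only for the interaction.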

Additional observations from a re-analysis of the deposited data

Results flagged for a closer look

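In each group of 5 KO libraries, the highest and the lowest library of 91 named genes were compared with the nearest other library by Dixon's criterion (gap over range above 0.71). Of 182 gene and group pairs, 14 stood apart. Chance gives about 1 in 20 in groups not chosen by their values, and many of these genes were named after their values were seen, so the count is not read against that rate. KO_night 2 stood apart high in 4 genes, with Prkcd at 23.9 CPM, Prl (prolactin) at 20.3, Ramp3 at 5.02 and Stum at 49.1. KO_night 5 stood apart high in Gsta1 at 66 CPM, mt-Tc at 119 and Adora2a at 2.89. KO_day 1 stood apart high in the inducible chaperone gene Hspa1b at 6.8 CPM, in Plin4 at 7.34 and in Prkcd at 7.9. KO_day 2 stood apart high in the clock gene Arntl2 at 11.8 CPM and low in the activity gene Fos at 3.37. Htr1a stood apart high in KO_night 1 at 16 CPM, and Fbxl21, a ubiquitin ligase gene of the clock, high in KO_night 3 at 11.6.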

How the results depend on the processing

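Night against day in KO had 16 called genes, the genotype difference 0, KO_night 4 and 5 against KO_day 50, KO_night 1, 2 and 3 against KO_day 4, and the 2 night sets against each other 3. In that order the counts were 70, 105, 77, 241 and 26 with no filter on low counts, and 591, 1215, 198, 1093 and 55 with DESeq2. With the gene length trend removed, the first 4 were 98, 8, 102 and 8. In a fit of the KO libraries alone, night against day had 0 calls (3199 at an unadjusted p under 0.05) and the 3 comparisons by label 6, 11 and 8. Leaving out 1 library at a time gave 0 to 328, 0 to 1555, 6 to 434, 1 to 612 and 0 to 740. Only the genotype difference was refitted without each library of the series. The other counts were refitted without single KO libraries and without the library labelled WT_day 3. For the last count only KO_night libraries and the library labelled WT_day 3 were left out. With RLE scaling the counts stayed within 1.5 times.

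Same-numbered KO libraries did not deviate together (r = 0.12, -0.19, 0.10, -0.26 and 0.11, none best with its own number). The highest r of a day library with any night library was only 0.12 to 0.29. Pairing by number was therefore not seen, but these values cannot exclude it. With a replicate block, night against day in KO had 0 calls (3628 at an unadjusted p under 0.05) and the genotype difference 0. With only the conflicting libraries, night against day had 0 calls. With the time field in place of the title it also had 0, and 4 called genes changed sign, none passing: Htr1a at -0.00931, Ogfod2 at -0.047, Nsmf at -0.0105 and Npsr1 at 0.085. The cause of these shifts was not tested. In counts simulated at the depth of these libraries, 1.5-fold changes were recovered at 96% and 1.25-fold changes at 36%. Every simulated gene had the same spread, and genes that vary more between libraries were not simulated. Recovery in the real data can therefore be lower: Slc17a7, with a log2 change of 2.95 in KO, missed the threshold (edgeR adjusted p = 0.0513). Other depths were not simulated.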

Other observations

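Enzymes of cholesterol synthesis lay on different sides in the 2 sets of KO libraries. Of 20 genes, 13 were higher at night over all libraries with a median of 0.03, and 0 passed in edgeR or DESeq2 (1 at an unadjusted p under 0.05). Where the time labels agree, 4 of the 20 were higher and the median was -0.08, and where they conflict 18 were higher and the median was 0.12. The summed level of the list was 866, 1070, 1040, 903 and 938 CPM in KO_night 1 to 5 and ran from 890 to 997 by day, so KO_night 2 and 3 lay above the day range and KO_night 1 below it. The 13 mitochondrially encoded genes had 10 lower at night with a median of -0.08, and 0 passed in edgeR (1 in DESeq2). An unadjusted p under 0.05 was seen in 4 (30.8%, beside 17.7% of all genes).

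Markers of oligodendrocyte precursors, the dividing cells that give rise to myelinating cells, were higher at night in 6 of 6 genes with a median of 0.17. None passed in edgeR, 2 had an unadjusted p under 0.05 (33.3%, beside 17.7% of all genes) and 2 passed in DESeq2. Their summed level ran from 189 to 218 CPM by day and from 211 to 232 at night. Mature oligodendrocyte markers had 7 of 8 higher with a median of 0.08, and their sum ran from 2160 to 2510 by day and from 2180 to 2930 at night, highest in KO_night 3. Otx2, a transcription factor of choroid plexus, stood at 1.18, 0.795, 0.911, 0.992 and 1.28 CPM by day and at 1.47, 1.73, 1.71, 1.29 and 2.58 at night. Its groups did not overlap (0.75 ± 0.183, edgeR adjusted p = 0.076), while the 7 choroid plexus markers had a median of -0.12 and summed levels of 25.9 to 31.3 by day and 25 to 30 at night.

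Genes of thyroid hormone handling were split, with 3 of 6 higher at night, 4 at an unadjusted p under 0.05 (66.7%, beside 17.7% of all genes) and 0 passing in edgeR or DESeq2. Of 8 tested genes of the reproduction and growth axis, 5 were lower at night, 2 had an unadjusted p under 0.05, and 0 passed in edgeR and 1 in DESeq2. Kiss1 had 0 counts in all libraries and was not tested, and this 0 is not read as absence of expression.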
